A study of Mus musculus with 4 samples.

Results

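Smooth muscle contractile genes were followed in mouse colon across 4 groups: TNBS with zingerone, TNBS with ginger extract, TNBS alone and mock. The 10 genes were Actg2, Acta2, Des, Tpm2, Tpm1, Myh11, Tagln, Cnn1, Mylk and Myl9, taken by the gene symbol of the platform annotation or its current synonym, out of 16637 named genes. Colon RNA was hybridised to 1-colour Cy3 arrays, 1 array per group, from a study of 24 female mice in 4 groups of 6, killed on day 7. Mock mice, strain labelled BALB/c, received 0.1 ml of 50% ethanol. The other groups, strain labelled BALC/c, received 250 mg/kg TNBS (trinitrobenzene sulfonic acid, a hapten that provokes colitis in rodents) in the same vehicle, alone or mixed with ginger extract or with zingerone, a phenolic ketone of ginger. Every group, mock included, therefore had ethanol. The labels give neither the amounts of ginger extract and zingerone nor say if the RNA on an array was that of a single mouse or pooled. There was 1 array per group, so differences carry neither error nor p-value and precision is limited by the number of arrays.

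Smooth muscle shortens when calcium and calmodulin activate myosin light chain kinase, which phosphorylates the regulatory light chain so that myosin pulls on actin filaments. Calponin, tropomyosin and transgelin bind those filaments, and desmin links the contractile apparatus through the cell. In the colon these proteins are found in the muscle coat that drives motility, the thin muscle layer under the mucosa, and the walls of vessels. Not all of them are limited to muscle, and Acta2, for example, is also made by myofibroblasts and pericytes.

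Intensities are on a linear scale, and differences are log2 intensity of the first array minus the second. A gene counted as measured where its intensity was at or above the median named probe of an array (269 to 272) on 1 array or more. All 10 genes passed, among 10056 genes in all. Of the 10 genes, 8 had 1 probe, Acta2 had 4 and Mylk 3. Acta2 is given by single probe, its brightest standing for the gene in counts, and Mylk as the mean of its probes. Genes at least 1.5-fold or 2-fold apart are counted and set beside the share of all measured genes that lay as far apart. Since replicates are lacking, the only yardstick is how far probes of the same gene disagreed. For zingerone minus TNBS, the differences of paired probes lay a median of 0.32 apart on the log2 scale, with a 90th percentile of 0.98, over 932 genes. These had exactly 2 probes, both reaching the median named probe on 1 array or more, so pairs with a dim probe are left out. For zingerone minus ginger the median gap was 0.22 and the 90th percentile 0.66. This is no replicate error, since it leaves out the spread between mice and arrays.

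Most of the contractile genes were lowest on the zingerone array. Actg2, Acta2 by its brightest probe, Tpm2 and Myh11 were at least 1.72-fold lower there than on any of the other 3 arrays. With the 4 Acta2 probes averaged, Acta2 was not among them. In all, 8 of the 10 genes had their lowest value on zingerone, against 26.3% of all measured genes. Of these, Cnn1 (1.0-fold) and Tpm1 (1.07-fold) were close to the next lowest array. Tagln was lowest on TNBS and Myl9 on mock. TNBS alone left the group split: Des, Tpm1 and Myl9 were higher than in mock colon, and Myh11, Tagln, Actg2 and Cnn1 were lower. Tpm2 and the brightest Acta2 probe were nearly equal on TNBS and mock, while the other Acta2 probes were lower on TNBS (-0.69, -1.26 and -0.39). On the ginger array the genes stayed within 1.5-fold of TNBS alone, apart from Des.

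**Figure D1:**
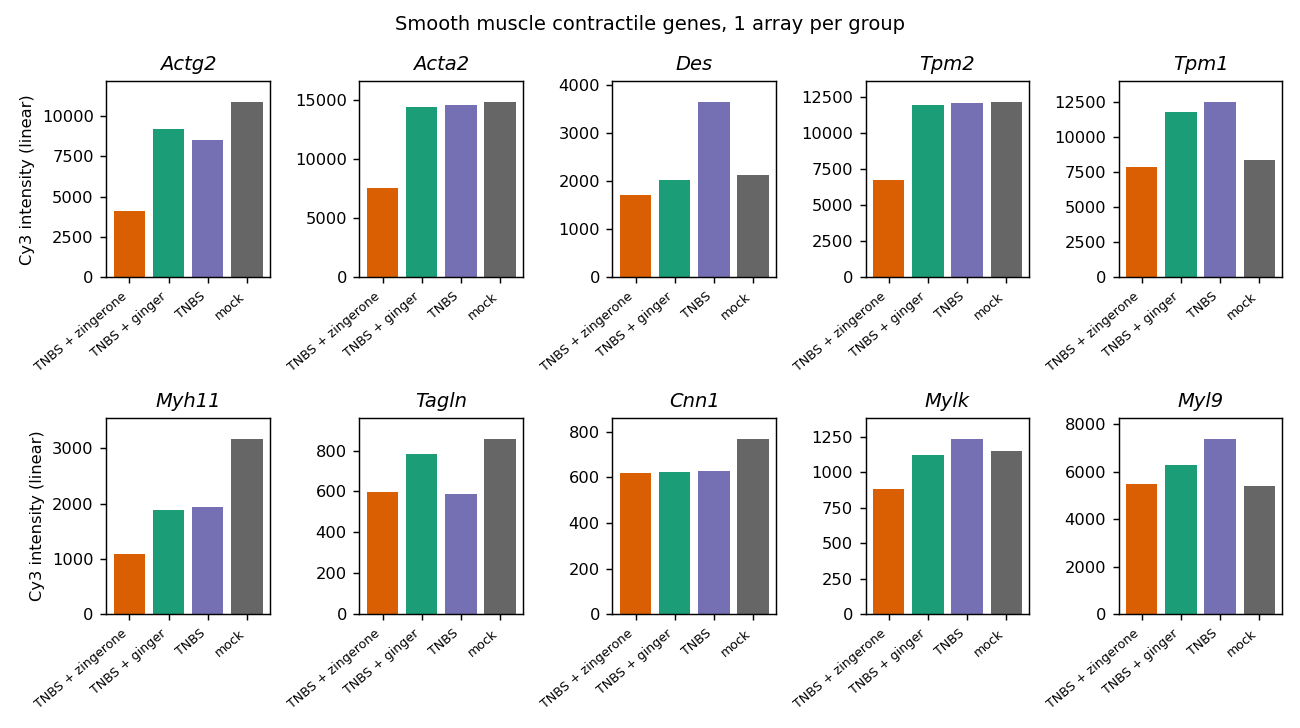
Cy3 intensity (linear axis from 0) of each contractile gene on the zingerone, ginger, TNBS and mock arrays, 1 bar per array, with Acta2 as its brightest probe and Mylk as the mean of 3 probes. Actg2, Acta2, Tpm2 and Myh11 are lowest on the zingerone array, while Des is highest on the TNBS array at 3643.

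Among the actins, Actg2 encodes the gamma actin of enteric smooth muscle. Its intensity was 4091 on the zingerone array, 9174 on ginger, 8531 on TNBS and 10858 on mock. The zingerone array stood apart, 2.09-fold below TNBS, while TNBS was 1.27-fold below mock. Acta2 encodes the alpha actin of smooth muscle, and its brightest probe read 7560 on zingerone, 14466 on ginger, 14612 on TNBS and 14844 on mock. The ginger, TNBS and mock values spanned 2.61%, and the zingerone value was 1.93-fold below TNBS. Actins have nearly identical coding sequences, and the probe sequences were not used here, so cross-hybridisation between Acta2, Actg2 and other actins was not tested.

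The remaining Acta2 probes were dimmer and did not all follow the brightest. The next probe read 428 on zingerone, 660 on ginger, 557 on TNBS and 899 on mock. It was also lower on zingerone than on TNBS, by 0.38 on the log2 scale, but it was lower on TNBS than on mock, by 0.69. The third probe read 280 on zingerone, 218 on ginger, 165 on TNBS and 393 on mock, and its zingerone-minus-TNBS difference was 0.77. The dimmest read 185 on zingerone, 149 on ginger, 124 on TNBS and 162 on mock. Its difference was 0.58, and it was below the median named probe on every array. The 4 probes thus differed in sign for zingerone minus TNBS, both dim probes being higher. Against mock, all 4 probes were lower on TNBS, by 0.02 for the brightest and by 1.26 for the third.

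**Figure D2:**
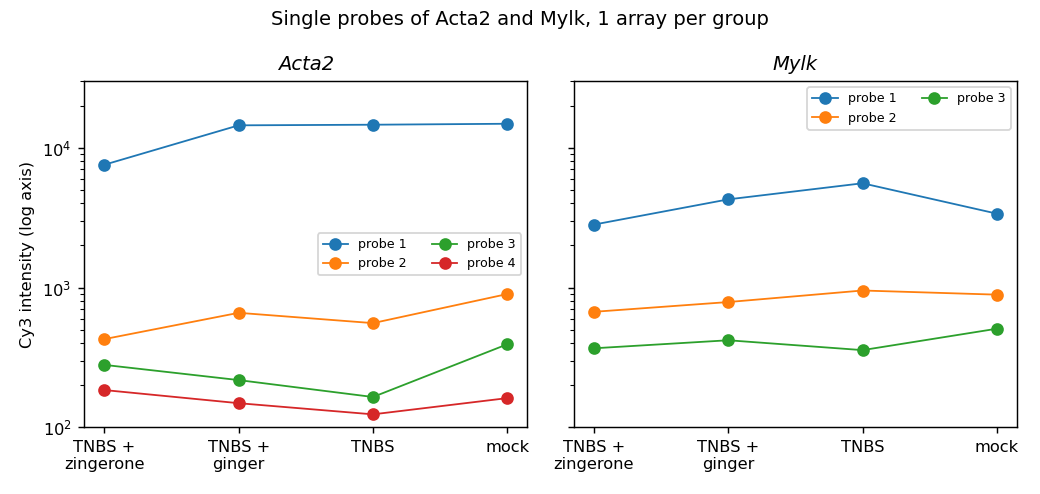
Intensity (log axis) of the 4 Acta2 probes and 3 Mylk probes on the zingerone, ginger, TNBS and mock arrays, numbered by brightness and joined by lines. The brightest Acta2 probe is low on the zingerone array alone, whereas probes 3 and 4 are lowest on the TNBS array.

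Myh11 encodes the heavy chain of smooth muscle myosin, the motor of the thick filament. It read 1096 on zingerone, 1887 on ginger, 1934 on TNBS and 3172 on mock. Myh11 was lower than mock on all 3 arrays with TNBS, 1.64-fold on TNBS alone, and lowest on zingerone, 2.89-fold below mock. That was the deepest of the contractile genes against mock. Only 0.3% of measured genes had a lower zingerone-minus-mock difference.

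Tropomyosins lie along the actin filament and govern the access of myosin to it. Tpm2 read 6743 on zingerone, 11904 on ginger, 12093 on TNBS and 12125 on mock. Its values without zingerone spanned 1.86%, and the zingerone value was 1.79-fold below TNBS, a pattern close to that of the brightest Acta2 probe. Tpm1 read 7875 on zingerone, 11814 on ginger, 12493 on TNBS and 8393 on mock. Here TNBS was 1.49-fold above mock and zingerone lay 1.59-fold below TNBS, near the mock level.

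Myl9 encodes the regulatory light chain of smooth muscle myosin, and Mylk the kinase that phosphorylates it. Myl9 read 5477 on zingerone, 6299 on ginger, 7397 on TNBS and 5409 on mock. It was 1.37-fold higher on TNBS than on mock, and the zingerone and mock values differed 1.01-fold. Mylk averaged 886 on zingerone, 1122 on ginger, 1238 on TNBS and 1152 on mock, but its probes disagreed. The brightest read 2822 on zingerone, 4275 on ginger, 5572 on TNBS and 3378 on mock, higher on TNBS than on mock by 0.72, as in Des, Tpm1 and Myl9. The second read 671 on zingerone, 788 on ginger, 953 on TNBS and 890 on mock. The third was lower on TNBS than on mock by 0.51 and read 368 on zingerone, 420 on ginger, 357 on TNBS and 508 on mock. Mylk yields long, short and kinase-free products in mammals, and which of them each probe reads is not given in the sources used here.

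Des encodes desmin, the intermediate filament of muscle. It read 1707 on zingerone, 2025 on ginger, 3643 on TNBS and 2130 on mock. Des was the contractile gene with the highest TNBS-minus-mock difference, 1.71-fold, and TNBS alone stood above the other 3 arrays. It was 2.13-fold lower on zingerone and 1.80-fold lower on ginger than on TNBS. Against mock, ginger differed 1.05-fold and zingerone 1.25-fold.

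Tagln encodes transgelin (SM22), and Cnn1 calponin, related actin-binding proteins of smooth muscle. Tagln read 596 on zingerone, 783 on ginger, 587 on TNBS and 858 on mock. Mock and ginger were the higher arrays, and TNBS and zingerone were nearly equal. Cnn1 read 619 on zingerone, 622 on ginger, 626 on TNBS and 769 on mock, so the 3 arrays with TNBS were alike and mock was 1.23-fold above TNBS. A background left in the values would make folds at such intensities smaller.

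**Figure D3:**
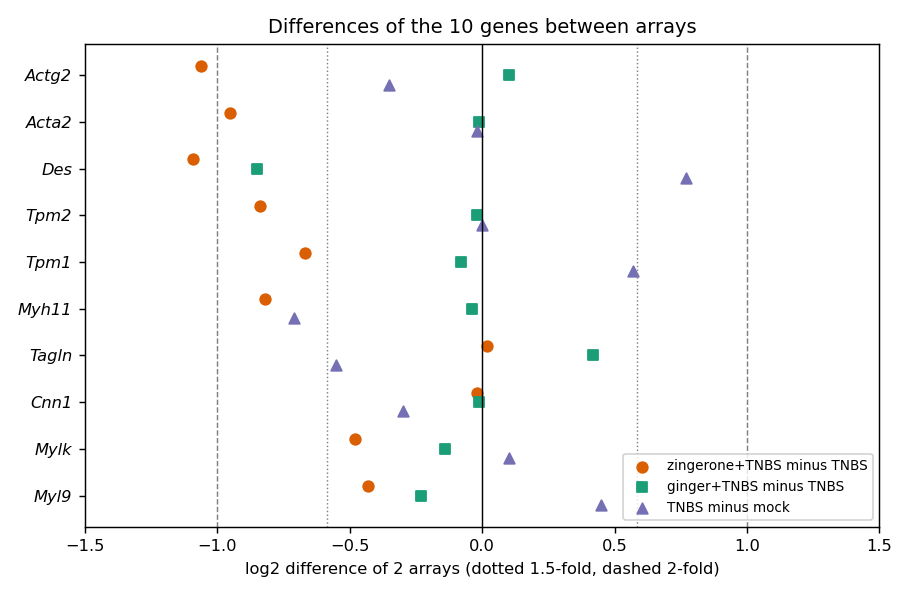
Log2 difference of each contractile gene for zingerone minus TNBS (circles), ginger minus TNBS (squares) and TNBS minus mock (triangles), with dotted lines at 1.5-fold and dashed lines at 2-fold. Circles lie left of 0 for 9 of 10 genes, squares lie near 0 except for Des at -0.85 and Tagln at 0.42, and triangles fall on both sides.

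TNBS against mock asked how the contractile genes stood in the colitis model itself. Only Des was at least 1.5-fold higher, a call made for 11.8% of all measured genes, and only Myh11 was at least 1.5-fold lower, as were 12.2%. None was 2-fold apart, against 5.08% of genes higher and 4.52% lower. Of the 10 genes 6 were lower by any amount, with 53.7% in all. The median difference was -0.01, beside -0.04 over all measured genes. As a group the contractile genes were therefore near the background in this comparison. With Acta2 by its brightest probe, no difference exceeded 1.08, the 90th percentile of the gap between probes of a gene for TNBS minus mock, but the third Acta2 probe, at -1.26, did. In bulk tissue, fewer cells of a type and less RNA per cell cannot be told apart.

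Zingerone with TNBS against TNBS alone gave the widest shift of the contractile genes. Actg2, Acta2, Des, Tpm2, Tpm1 and Myh11, 6 of 10, were at least 1.5-fold lower, against 8.61% of measured genes, and none was 1.5-fold higher, against 13.1%. Des and Actg2 were at least 2-fold lower, where 2.96% of genes were. None was 2-fold higher, against 4.57%. Of the 10 genes 9 were lower by any amount, with 51.5% in all. The median difference was -0.74, beside -0.02 over all measured genes. Tagln (0.02) and Cnn1 (-0.02) were the exceptions, both nearly equal on the 2 arrays. Des (-1.09) and Actg2 (-1.06) exceeded the 90th percentile of probe gaps, 0.98, and the other 8 genes did not. With its 4 probes averaged Acta2 itself was at 0.0049, which leaves 5 genes past 1.5-fold, and the median was -0.57.

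Ginger extract with TNBS against TNBS alone showed little of this. Des was 1.5-fold lower, a call made for 6.40% of measured genes, and none of the 10 was 1.5-fold higher, against 6.06%. None was 2-fold apart, where 1.35% of genes were higher and 2.48% lower. By any amount 8 of the 10 were lower, with 47.1% in all, several of them by under 0.1. The median difference was -0.03, beside 0.02 over all genes. The largest value in the other direction was 0.42, for Tagln. The zingerone and ginger comparisons share the TNBS array, so an unusual value there moves both.

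Zingerone against ginger, both with TNBS, does not involve the TNBS or mock array. It shares the single zingerone array with every other zingerone comparison, so an unusual value there moves all of them. Of the 6 comparisons among the 4 arrays, only 3 are independent. All 10 genes were lower on zingerone, against 54.1% of measured genes, though Cnn1 differed by only 0.01 on the log2 scale. Actg2, Acta2, Tpm2, Myh11 and Tpm1 were at least 1.5-fold lower, against 1.59% of genes, with Tpm1 (-0.59) at the edge. None was 1.5-fold higher, where 4.85% were. Actg2 was 2.24-fold lower, and 0.358% of genes were 2-fold lower. The median difference was -0.49, beside -0.03 over all measured genes. Actg2, Acta2 by its brightest probe, Tpm2 and Myh11 exceeded 0.66, the 90th percentile of probe gaps here. The other Acta2 probes differed by -0.63, 0.36 and 0.32, so none of them exceeded it and their signs differed. The amounts given are not known, so this compares 2 arrays and not matched doses.

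**Figure D4:**
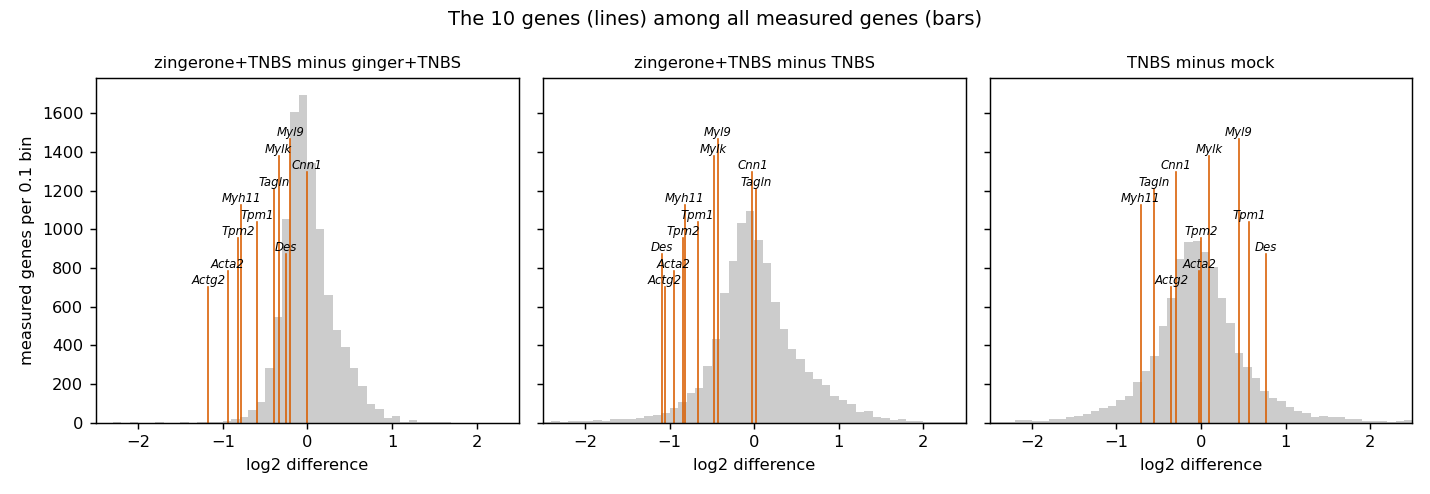
Number of measured genes (bars, 0.1-wide bins, 10056 genes) by log2 difference, with a line at the value of each contractile gene; line height has no meaning. For zingerone minus ginger 5 genes lie at least 1.5-fold to the left, where 1.59% of all measured genes do, while for TNBS minus mock the genes spread over both sides.

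Against mock, the contractile genes on the same zingerone array were also low. Myh11 and Actg2 were at least 2-fold lower, against 1.05% of measured genes, and Acta2 and Tpm2 were between 1.5-fold and 2-fold lower, making 4 genes past 1.5-fold, against 5.11%. None was 1.5-fold higher, against 6.39%, and 9 were lower by any amount, with 48.6% in all. The median was -0.45, beside 0.01 over all genes. On the ginger array Myh11 alone was 1.5-fold below mock, against 5.20% of genes, and none was 1.5-fold above it, against 4.95%. There 8 were lower by any amount, with 48.9% in all, and the median was -0.06. In all, 25 of 10056 measured genes (0.249%) were at least 1.5-fold lower on the zingerone array than on each of the other 3, and 4 of them were the contractile genes Actg2, Acta2, Tpm2 and Myh11. With the 4 Acta2 probes averaged, Acta2 was no longer among them.

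RefSeq promoter sequences (build GRCm38.p6) were matched by symbol for 7 of the 10 genes, and Actg2, Myh11 and Tagln had none. Serum response factor binds the CArG box, a 10-base element found before many contractile genes. The 250 bases before each start site were searched on both strands for the CArG box and for variants of it with a single G or C among the middle bases. No matches overlapped. Of 32851 windows in the table, 1.47% held a CArG box and 7.24% a variant. Myl9 held a box and a variant, and Acta2 held 2 variants. Des, Tpm2, Tpm1, Cnn1 and Mylk held no match, which says only that these letters are not in this window. The windows of Acta2 (chr19:34255374-34255623, minus strand), Myl9 (chr2:156775214-156775463, plus strand) and Tpm2 (chr4:43523555-43523804, minus strand) are shown 5′ to 3′. They are the genes with matches, and Tpm2, which had values near those of the brightest Acta2 probe on ginger, TNBS and mock relative to zingerone; capitals mark the matches.
Acta2: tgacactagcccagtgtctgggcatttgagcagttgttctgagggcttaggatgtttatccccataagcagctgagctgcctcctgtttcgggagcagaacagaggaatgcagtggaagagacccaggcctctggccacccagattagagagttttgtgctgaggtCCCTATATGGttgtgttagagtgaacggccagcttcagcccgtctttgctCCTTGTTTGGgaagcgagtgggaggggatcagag
Myl9: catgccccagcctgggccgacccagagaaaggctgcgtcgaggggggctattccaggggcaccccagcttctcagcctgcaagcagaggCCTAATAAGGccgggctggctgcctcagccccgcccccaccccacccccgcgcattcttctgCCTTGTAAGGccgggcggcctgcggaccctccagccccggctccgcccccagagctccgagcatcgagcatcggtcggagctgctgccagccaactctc
Tpm2: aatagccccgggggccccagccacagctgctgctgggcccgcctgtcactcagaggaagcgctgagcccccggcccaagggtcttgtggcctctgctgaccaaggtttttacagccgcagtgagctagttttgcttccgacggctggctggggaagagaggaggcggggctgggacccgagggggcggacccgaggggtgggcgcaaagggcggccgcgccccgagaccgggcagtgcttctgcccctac
On zingerone against TNBS, the differences of these genes were -0.95 for the brightest Acta2 probe, -0.43 for Myl9 and -0.84 for Tpm2. A match is a description of the sequence, not a bound site.

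A wider list of smooth muscle contractile, calcium and regulatory genes also had medians below 0 on zingerone, nearer 0 than those of the contractile genes. Its 21 measured genes had a median of -0.24 for zingerone minus ginger, beside -0.03 over all measured genes. Of them 15 were lower by any amount, against 54.1%. For zingerone minus mock the median was -0.18, beside 0.01, and 17 were lower, against 48.6%. The summed intensity of the 21 genes was 20368 on zingerone, 24884 on ginger, 25208 on TNBS and 24982 on mock. Csrp1, the brightest of them, weighs heavily in these sums, at 5616 on zingerone, 7943 on ginger, 7487 on TNBS and 5806 on mock. Past 1.5-fold, 2 of the 21 were lower on zingerone than on ginger, against 1.59% of measured genes. Among these Ppp1r14a, an inhibitor of myosin phosphatase, read 1580 on zingerone, 2731 on ginger, 1808 on TNBS and 2438 on mock. The other was Lmod1, the smooth muscle leiomodin, at 430 on zingerone, 654 on ginger, 391 on TNBS and 520 on mock. Of the 21 genes, 4 were at least 1.5-fold lower and 2 higher on zingerone than on TNBS, against 8.61% and 13.1% of measured genes. The median was -0.10. Flna, which encodes the actin cross-linker filamin A, read 1480 on zingerone, 2107 on ginger, 3500 on TNBS and 1968 on mock. Cnn2, a calponin of many cell types, read 1000 on zingerone, 1386 on ginger, 2296 on TNBS and 893 on mock. Both were highest on the TNBS array, as Des was. Smtn, which encodes smoothelin of contractile smooth muscle, read 781 on zingerone, 925 on ginger, 488 on TNBS and 1927 on mock, and Fhl1, a LIM protein of muscle, 2830 on zingerone, 2015 on ginger, 1203 on TNBS and 3981 on mock. These were lowest on the TNBS array. On TNBS against mock, 4 genes of this list were 1.5-fold higher and 3 lower, against 11.8% and 12.2% of measured genes. The median was -0.04. Myocd, which encodes the coactivator of serum response factor in smooth muscle, was below the median named probe on every array.

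Related filament genes of other cells were measured beside them. Of 6 measured non-muscle actin, myosin and tropomyosin genes, 2 were 1.5-fold lower and 1 higher on zingerone than on TNBS. The shares of measured genes were 8.61% and 13.1%, and the median of the 6 was -0.04. None was 1.5-fold apart between zingerone and ginger, against 1.59% lower and 4.85% higher. Myh14, a non-muscle myosin heavy chain, read 3042 on zingerone, 2689 on ginger, 1437 on TNBS and 2555 on mock, opposite to Myh11 on zingerone. Acta1, the skeletal muscle actin, read 1122 on zingerone, 547 on ginger, 769 on TNBS and 265 on mock. It was highest where Actg2 and the brightest Acta2 probe were lowest. Actc1, the cardiac actin, read 340 on zingerone, 601 on ginger, 311 on TNBS and 727 on mock. Of the 18 skeletal and cardiac muscle genes named on the array 8 were measured. Their summed intensity was 3497 on zingerone, 3327 on ginger, 3456 on TNBS and 3112 on mock. Acta1 alone made up 1122 of the sum on zingerone. Of these 8 genes, 6 were lower on zingerone than on ginger, against 54.1% of measured genes, with a median of -0.20.

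Markers of other cells of the colon wall moved with these arrays, and their part in the contractile gene values was not tested. The summed intensity of the contractile genes was 36649 on zingerone, 60094 on ginger, 63154 on TNBS and 59707 on mock. The 12 epithelial markers, all measured, summed to 208481 on zingerone, 204395 on ginger, 167563 on TNBS and 180860 on mock. Against TNBS their median difference was 0.41 on zingerone and 0.50 on ginger. On zingerone 3 of them were 1.5-fold higher than on TNBS and none lower, against 13.1% and 8.61% of measured genes. For zingerone minus ginger the median was 0.02 for epithelial markers and -0.49 for contractile genes. Single epithelial markers went both ways there, 6 of the 12 being lower on zingerone, against 54.1% of measured genes. Cdx2, an intestinal transcription factor gene, read 988 on zingerone, 487 on ginger, 257 on TNBS and 565 on mock, and was lowest on the TNBS array. Krt18, a keratin gene, read 13116 on zingerone, 20562 on ginger, 18134 on TNBS and 8565 on mock, and was lowest on the mock array. Of the 12 epithelial markers, 9 were lower on TNBS than on mock by any amount, against 53.7% of measured genes.

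Among other cells that share the muscle coat, 5 of 12 named enteric neuron and glia markers were measured. Their sum was 2604 on zingerone, 3598 on ginger, 5532 on TNBS and 1914 on mock. All 5 were lower on zingerone than on TNBS, against 51.5% of measured genes, 2 of them at least 2-fold, against 2.96%. All 5 were also lower on zingerone than on ginger, against 54.1%. The medians were -0.52 and -0.28. Vip, a relaxant peptide of enteric neurons, read 446 on zingerone, 717 on ginger, 942 on TNBS and 286 on mock. Gal, the neuropeptide galanin, read 1305 on zingerone, 1925 on ginger, 3470 on TNBS and 652 on mock. Both peptides were lowest in mock colon and highest on TNBS. The 4 measured genes of the list for interstitial cells of Cajal summed to 7626 on zingerone, 5754 on ginger, 4389 on TNBS and 6746 on mock. Thbs4, a matrix protein, read 4603 on zingerone, 2227 on ginger, 830 on TNBS and 3716 on mock within those sums. Gja1, the gap junction protein connexin 43, read 1169 on zingerone, 1459 on ginger, 1913 on TNBS and 810 on mock. Thbs4 was lowest on the TNBS array and Gja1 highest there. Prkcq, a protein kinase C, read 290 on zingerone, 349 on ginger, 369 on TNBS and 445 on mock. The pacemaker channel gene Ano1 read 1564 on zingerone, 1720 on ginger, 1278 on TNBS and 1775 on mock, and Kit, which defines these cells, was below the median named probe on every array.

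Fibroblast, pericyte and endothelial lists bear on Acta2, which some of those cells also make. The 12 measured fibroblast and myofibroblast markers summed to 14824 on zingerone, 16268 on ginger, 35652 on TNBS and 11238 on mock. Of them 9 were 1.5-fold higher on TNBS than on mock, against 11.8% of measured genes, with a median of 0.95. The Acta2 probes differed by -0.02 for the brightest and by -0.69, -1.26 and -0.39 for the others. Vim, the intermediate filament of mesenchymal cells, read 5140 on zingerone, 6446 on ginger, 18999 on TNBS and 3388 on mock, so it was high on TNBS like Des. Zingerone and ginger had a median difference of -0.03 on this list. The 6 measured pericyte and mural markers summed to 2096 on zingerone, 2439 on ginger, 2936 on TNBS and 2105 on mock. All 6 were lower on zingerone than on ginger, against 54.1% of measured genes, but none by 1.5-fold, against 1.59%. The 8 measured endothelial markers summed to 3608 on zingerone, 3780 on ginger, 5370 on TNBS and 3147 on mock. Of these, 5 were 1.5-fold lower on zingerone than on TNBS, against 8.61% of measured genes. Neutrophil markers, 8 measured, summed to 83554 on zingerone, 105050 on ginger, 181214 on TNBS and 5953 on mock, with a median of -1.62 for zingerone minus TNBS. No marker on these lists was at 0, since the lowest intensity in the table is 74.2.

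**Figure D5:**
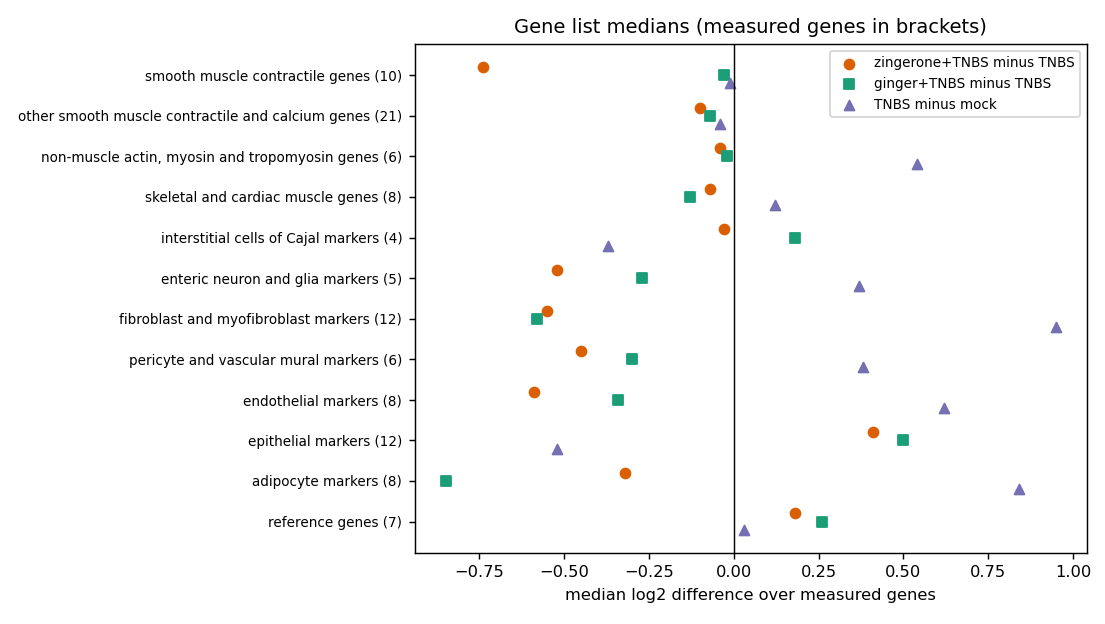
Median log2 difference of each gene list for zingerone minus TNBS (circles), ginger minus TNBS (squares) and TNBS minus mock (triangles), with the number of measured genes in brackets; neutrophil markers are left out for scale. Among the lists drawn the contractile genes have the lowest circle, -0.74, with neutrophil markers lower still at -1.62, while their square and triangle lie near 0.

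The 10 genes did not share a single pattern. Their root mean square distance from the group's median profile, each gene's 4 log2 values being centred on their own mean, ran from 0.08 for Mylk to 0.345 for Myh11. The non-members nearest to that profile over the 4 arrays were Mcmdc2 (0.011), Zfp275 (0.019), C5ar2 (0.029), Tbxa2r (0.03) and Mdk (0.033). In all 161 non-members lay within 0.1, so closeness over 4 arrays is common. The range of a gene over the 4 arrays had a median of 0.76 for the contractile genes and 0.47 for all measured genes.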

How the data were processed

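Colon RNA of 4 groups was measured, 1 array each. The authors deposited 1 Cy3 intensity per probe for 29922 probes. Per the submitters' processing notes limma was used, with version and role not given in the sources used here. All 4 arrays share nearly 1 distribution, their sorted values lying within 1.84% of each other, which quantile normalization would give, so a bright level is mainly a rank. Values run from 74.2 to 64634, never near 0, so a background may remain and folds of dim probes be too small.

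Symbols came from the platform annotation (21020 probes with 1 symbol, 8902 with none), updated through RefSeq synonyms. No pseudocount was added before log2, and probes of a gene were averaged, except Acta2, where the brightest probe stood for the gene. No test was possible. Steps were tested on simulated data. Genes of other lists are named if 2-fold apart in a main comparison, at most 4 a list, without naming all of these. Others named (Myocd, Ppp1r14a, Lmod1, Csrp1, Ano1, Prkcq, Kit and Pgk1) were chosen after their values were seen. Members and lists were chosen with earlier results of these data known. Python 3.11.15, numpy 2.4.6 and pandas 2.3.3 were used. Alternatives were other normalizations, background subtraction, a floor, other filters, the brightest probe and a reference gene level, and, added after seeing the data, other treatments of Acta2 and Mylk.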

Additional observations from a re-analysis of the deposited data

How the results depend on the processing

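Group medians and counts were recomputed under 10 alternatives, 294 of 310 values staying within 0.1 (log2 medians) or 1.5 times (counts), and differences of single genes at least 1.5-fold apart kept their sign except 1: Acta2 for zingerone minus TNBS was 0.0049 with its 4 probes averaged, in place of -0.95. Quantile normalization, equal medians, a floor at the 25th percentile and both other filters moved none of these. They could hardly do so, because the arrays already share nearly 1 distribution and the 10 genes lie above the floor and filter levels. Each of them left all 31 group values the same, which is no evidence of stability. Every group value that moved did so under the other settings. Relative to reference genes, medians were -0.29 for ginger minus TNBS, -0.92 for zingerone minus TNBS, -0.28 for ginger minus mock and -0.81 for zingerone minus mock. There 1 gene was 2-fold lower on ginger than on TNBS (4.15% of measured genes in that setting) and 4 on zingerone (4.42%), and 8 were 1.5-fold (23.4%) and 4 were 2-fold (4.01%) lower on zingerone than on mock. That setting lowers every gene by 0.26, 0.18, 0.22 and 0.36 in these comparisons, from 7 measured genes that include B2m and Pgk1. With the 5th percentile subtracted, 2 genes were 1.5-fold lower on TNBS than on mock, as were 19.1% of measured genes in that setting, and the median of zingerone minus mock was -0.55. With the brightest probe per gene, 2 genes were 1.5-fold higher on TNBS than on mock, as were 13.0% of measured genes in that setting. With the 4 Acta2 probes averaged, medians were -0.15 for TNBS minus mock, -0.57 for zingerone minus TNBS and -0.37 for zingerone minus ginger. There 2 genes were 1.5-fold lower on TNBS than on mock, as were 12.2% of measured genes. Without Acta2 and Mylk the median of TNBS minus mock was -0.15. No paired analysis was possible because each group has 1 array.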

Other observations

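Genes outside the contractile list were also at least 1.5-fold lower on the zingerone array than on each other array, 21 of the 25 that were, and those given here were chosen after their values were seen. Ckb, the brain-type creatine kinase, which smooth muscle also uses, read 1009 on zingerone, 1788 on ginger, 1538 on TNBS and 2487 on mock. The complement gene C3 read 1512 on zingerone, 3460 on ginger, 8509 on TNBS and 2847 on mock. Lgals3, which encodes galectin-3, read 23212 on zingerone, 36993 on ginger, 57220 on TNBS and 54479 on mock. Tmem258 was far below its other values on zingerone alone, at 121, against 2753 on ginger, 3228 on TNBS and 3724 on mock, through a single probe. Subtracting the 5th percentile of each array raised the number of such genes to 68, and Actg2, Acta2, Tpm2 and Myh11 were among them.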
